A study of Aethionema arabicum with 12 samples.

Results

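The AP2/ERF factors are plant transcription factors that share the AP2/ERF DNA-binding domain, which plant gene catalogues also name the integrase-type DNA-binding domain. The family is sorted into AP2-like proteins, which carry a repeat of the domain and act in embryo, root and flower development; DREB and ERF proteins, which carry a single domain and bind dehydration-responsive or ethylene-responsive promoter elements; RAV proteins, which add a B3 domain; and a lone protein called Soloist. In Arabidopsis seeds members of the family take part in oil synthesis, embryo identity, low-oxygen sensing and responses to ethylene, abscisic acid and water loss.

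Members were the gene models whose deposited short description names the domain or the family (the integrase-type domain, AP2, an ERF domain, an ethylene response factor, an ethylene-responsive element binding protein or DREB), leaving out the single model paired with the Arabidopsis gene AT2G40220. The rule found 143 of 24932 gene models. By their descriptions, 101 of the 143 are AP2/ERF factors, paired with 91 Arabidopsis genes, and the file's own domain text lists the AP2/ERF or integrase-type domain for 86 of them. The other 42 go against the name: 33 are B3-domain proteins described as AP2/B3-like with no AP2 domain, 8 are lipid phosphatases whose description holds the letters PAP2, and 1 is a RING ubiquitin ligase that binds DREB2A. The results below are for the 101 AP2/ERF models, and the 42 are described apart, at the end. The rule also missed 29 models paired with 21 listed family genes, DREB2A, DREB2B, RAP2.3 and most cytokinin response factors among them, because their descriptions use other words. Gene symbols are those of the paired Arabidopsis genes, and roles are those known in Arabidopsis.

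The samples were imbibed, intact and ungerminated *Aethionema arabicum* seeds, Cyprus accession, titled WT (wild type) in all 4 conditions. The species is a relative of Arabidopsis in the Brassicaceae. Seeds lay on moist filter paper at 14 °C, and the light was white, at 100 µmol m-2 s-1. The 4 conditions, with 3 libraries each, were 7 d of light followed by 7 d of darkness (light-then-dark seeds), 23 h of light (called 1 d), 7 d of light and 14 d of light. Polyadenylated RNA of whole seeds was sequenced, so fewer cells of a type and less RNA per cell cannot be told apart. Whether the 3 libraries of a condition are separate seed lots is not in the labels, so the spread behind each p-value may be technical.

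Libraries held 1299536 to 1900418 counts in light-then-dark seeds, 3387609 to 3996148 at 1 d, 1596668 to 2689668 at 7 d and 916523 to 2448092 at 14 d. A pair of libraries stood apart from the others of their condition. On the first 2 principal components of all tested genes (66.2% and 11% of the variance), 7 d replicate 3 lay towards 14 d replicates 1 and 3, and 14 d replicate 2 lay beside 7 d replicates 1 and 2. Whether the labels of this pair were exchanged was not tested, and the labels do not settle it. The counts of AP2/ERF models that passed a test are given with and without the pair. Counts of changes of at least 2-fold and of the condition with the highest mean are over all 12 libraries. So are those of subfamilies, pathway lists and the 42 other models. Unless stated otherwise, a call of a single model, or its absence, is over all 12 libraries too. Such a call is of a comparison between 2 conditions, not of the F-test between the 4 conditions given further below. Summed storage-protein and oil-body markers (7 models, all tested) were 2850 to 3880 CPM in light-then-dark seeds, 973 to 1140 CPM at 1 d, 1860 to 2960 CPM at 7 d and 2130 to 4990 CPM at 14 d. Of these markers, 7 of 7 were higher at 7 d than at 1 d, against 30.7% of all tested models. Of the 2 endosperm markers, EXPA2 had no count outside 1 d and MAN7 was present throughout (summed 93.3 to 100.0, 147 to 163, 103 to 116 and 92.4 to 112 CPM in the same order). The 3 seed-coat markers summed to 3.88 to 4.07, 132 to 143, 56.5 to 78.9 and 79.9 to 129 CPM, almost all of it DFR, and the 3 root markers to 4.06 to 8.88, 22.9 to 33.0, 6.27 to 8.82 and 8.29 to 13.5 CPM. Of the seed-coat markers only DFR had enough counts to be tested. That sum therefore follows a single gene and cannot give the amount of seed-coat RNA. The part of these markers in the results below was not tested. CPM are counts scaled to the TMM-adjusted library size.

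Of the 101 AP2/ERF models, 48 (47.5%) had enough counts to be tested, against 61.4% of all models in the table, while 17 had no count in any library and 36 had between 1 and 103 counts over all 12 libraries. Per length, the 48 tested models had a median of 16.1 RPKM (reads scaled to gene length and library total, as deposited, averaged over 12 libraries), the same as all tested models. They ranged from 1.1 RPKM for the Soloist model to 230.0 RPKM for DREB2D, a DREB2-group factor of dehydration response. RAP2.6L, a factor of stress response and shoot regrowth, followed at 164 RPKM, then the cytokinin response factor CRF8 at 151 RPKM and the repressor ERF12 at 126 RPKM. ERF3 (92.1 RPKM), RAP2.2 (81.3), ERF11 (80.1), RAP2.12 (73.9), DREB2C (68.4) and ERF7 (68.3) completed the first 10. Summed over the 101 models, AP2/ERF transcripts took 1600 to 1870 CPM in light-then-dark seeds, 1420 to 1470 CPM at 1 d, 1610 to 1910 CPM at 7 d and 1650 to 2140 CPM at 14 d. The sums at 1 d lay below those of the 9 other libraries.

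**Figure D1:**
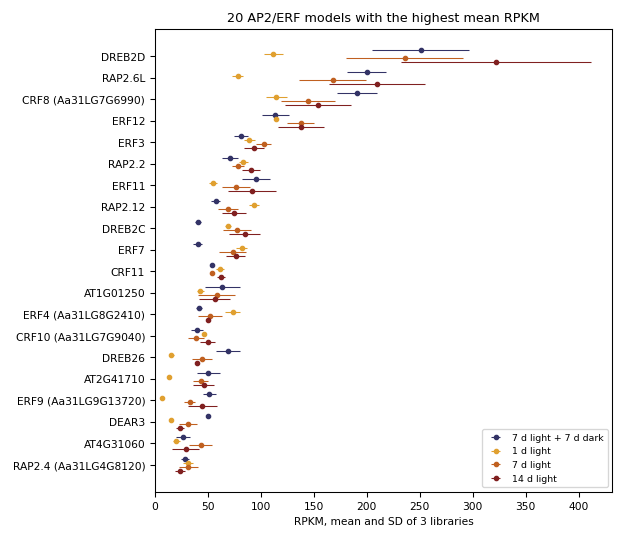
Mean RPKM (x axis, linear) with SD of 3 libraries for the 20 AP2/ERF models with the highest 12-library mean; each colour is a condition, with light-then-dark seeds drawn uppermost and then 1 d, 7 d and 14 d of light. DREB2D leads with a 12-library mean of 230.0 RPKM, and in DREB2D, RAP2.6L, DREB26, AT2G41710, ERF9 and DEAR3 the 1 d point lies left of the other 3.

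Levels of the densest transcripts carry a limit. No model of at least 300 bp exceeded 0.996 reads per base of its length in any library, and 9 AP2/ERF models passed 0.3 reads per base in at least 1 library (DREB2D at 0.548, CRF8, ERF12, RAP2.6L, ERF3, RAP2.12, RAP2.2, ERF7 and ERF4). Of all tested models, the 869 past 0.3 reads per base had median log2 fold changes of 0.19 for 7 d against 1 d, 0.18 for 14 d against 7 d, -0.11 for light-then-dark seeds against 14 d and 0.09 for light-then-dark seeds against 7 d. Over all 15301 tested models the same medians were 0.02, -0.01, -0.03 and -0.03. The part of this limit in the fold changes of the 9, and in the summed AP2/ERF levels above, was not tested.

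Among the 48 tested AP2/ERF models, 36 differed between the 4 conditions (75.0%; 72.3% of all tested models; F-test of equal means in edgeR's quasi-likelihood fit, adjusted p at most 0.05 over 15301 models, the test used throughout). Of the 36, 9 were highest in light-then-dark seeds, 13 at 1 d, 4 at 7 d and 10 at 14 d. Among the 11060 models of the whole table that differed, these shares were 29.4%, 46.3%, 8.14% and 16.1%, against 25.0%, 36.1%, 11.1% and 27.8% of the 36. Without the pair of libraries that stand apart, 46 AP2/ERF models differed (87.7% of all models tested in that way). In each run without a library the filter on low counts was set anew, and without the pair it kept 15485 models. The AP2/ERF models tested in such runs can therefore differ from the 48.

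**Figure D2:**
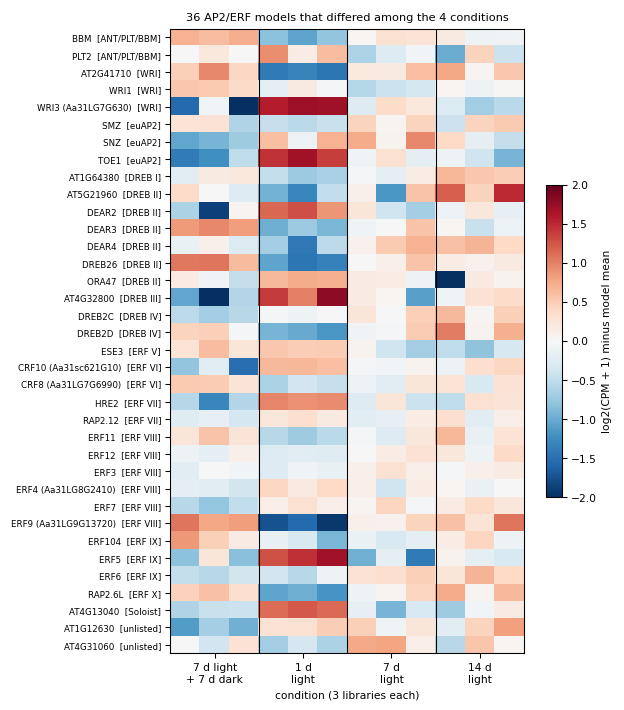
Rows are the 36 AP2/ERF models that differed between the 4 conditions, with the subfamily in brackets, and columns the 12 libraries by condition; colour gives log2(CPM + 1) minus the mean of the model over libraries (blue lower, red higher). ERF9, DREB26, RAP2.6L and AT2G41710 are blue in all 3 libraries of 1 d, whereas TOE1, WRI3, ERF5 and AT4G32800 are red there; BBM, DEAR3 and DREB26 are reddest in light-then-dark seeds.

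Between 7 d and 1 d of light, 16 of the 48 models were higher at 7 d (33.3%; 30.7% of all tested) and 13 were lower (27.1%; 29.7% of all tested), shares near those of the whole table. The median log2 fold change of the 48 was 0.11, against 0.02 for all tested models, and 10 of the 16 and 8 of the 13 had changed at least 2-fold. With 14 d replicate 2 and 7 d replicate 3 left out, 17 were higher and 18 lower (33% and 34% of all tested). Of the calls, 11 of 16 and 10 of 13 held whichever library was left out.

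Between 14 d and 7 d of light, no AP2/ERF model passed the test in either direction (0.163% of all tested models were higher and 0.144% lower). Across all tested models 1814 had an unadjusted p under 0.05, and the DESeq2 test called no AP2/ERF model either. The 48 had a median log2 fold change of 0.22, against -0.01 for all tested models. This count changed with the pair of libraries that stand apart. Without 14 d replicate 2 alone, 3 models were higher at 14 d (5.98% of all tested were higher and 4.84% lower), and without both libraries 13 were higher and 2 lower, against 18.1% and 17.4% of all models tested in that way. Since the pair was left out for lying far from its condition, the rest of each condition is closer together by construction. The 13 included DREB2D (log2 fold change 0.93, adjusted p = 0.000298 without the pair), RAP2.6L (0.73, adjusted p = 0.000324) and the DREB II model of AT5G21960 (1.88, adjusted p = 0.00126), and the 2 were RAP2.4 (-0.74, adjusted p = 0.0127) and the model of AT4G31060 (-0.99, adjusted p = 0.00739). The others of the 13 were RAP2.12, RAP2.2, ABR1, AT2G41710, CRF11, DREB2C, ERF11, the abundant CRF8 model, the CRF10 model Aa31LG7G9040 and ERF9, with log2 fold changes of 0.33 to 0.85.

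Light-then-dark seeds were compared with seeds kept in light for 14 d, which matches their age, and with seeds at 7 d of light, which is where the dark period began; both comparisons share the light-then-dark libraries. Against 14 d, 5 of the 48 models were higher in light-then-dark seeds (10.4%; 6.05% of all tested) and 5 lower (10.4%; 7.02% of all tested), with a median log2 fold change of -0.30 against -0.03 for all tested models. Against 7 d, 6 were higher (12.5%; 8.42% of all tested) and 7 lower (14.6%; 9.99% of all tested), with a median of -0.10 against -0.03. Many of these calls were close to the threshold. Whichever library was left out, 2 of the 5 higher and 3 of the 5 lower held against 14 d, and 1 of the 6 and 2 of the 7 against 7 d. With both libraries that stand apart left out, 4 were higher and 8 lower against 14 d (11.9% and 10.5% of all tested), and 13 higher and 10 lower against 7 d (19.7% and 19.3%).

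**Figure D3:**
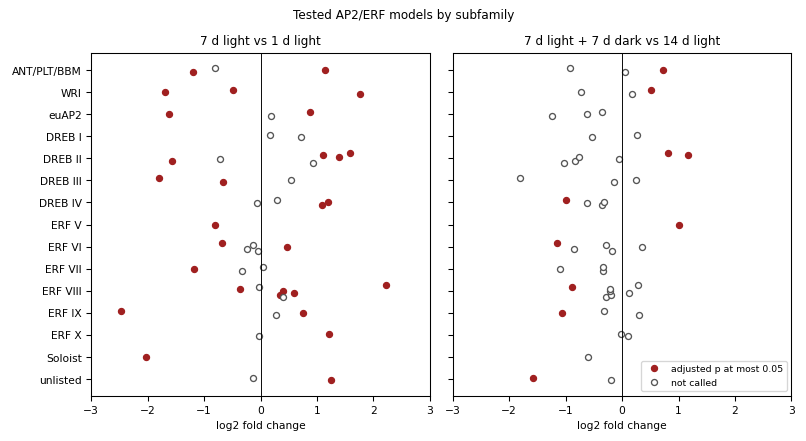
Each point is a tested AP2/ERF model, placed by subfamily (y axis) and log2 fold change (x axis), for 7 d against 1 d of light on the left and light-then-dark seeds against 14 d of light on the right; filled points passed the adjusted threshold. On the left, 16 filled points lie right of 0 and 13 left; on the right, 5 lie on each side.

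Of the 12 AP2-like models 9 were tested. At 7 d, 3 were higher and 4 lower than at 1 d, and the median log2 fold change of the 9 was -0.48 (33.3% higher and 44.4% lower, against 30.7% and 29.7% of all tested models). BABY BOOM (BBM), which promotes embryo identity, had 32.5, 31 and 33.3 CPM in light-then-dark seeds and 10.8, 9.01 and 11 CPM at 1 d. At 7 d it had 20.3, 24.7 and 24.2 CPM, and at 14 d 22.5, 18.4 and 18.7 CPM. Its 3 libraries of 1 d lay below all others and its 3 light-then-dark libraries above all others. BBM was higher at 7 d than at 1 d (log2 fold change 1.14, SE 0.15, adjusted p = 2.41e-05) and in light-then-dark seeds than at 14 d (log2 fold change 0.73, SE 0.16, adjusted p = 0.00827). Against 7 d the difference was smaller (0.50, adjusted p = 0.0285), and the call was lost without 7 d replicate 1 or light-then-dark replicate 1, 2 or 3 (log2 fold changes 0.41 to 0.53, adjusted p = 0.0585 to 0.135) and under DESeq2, scaling by total counts, the replicate block or the 6 libraries alone (log2 fold changes 0.43 to 0.52, adjusted p = 0.0502 to 0.112).

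PLETHORA2 (PLT2), a regulator of the root stem-cell niche, had 3.38, 4.07 and 3.33 CPM in light-then-dark seeds and 7.29, 3.82 and 5.72 CPM at 1 d. Seeds at 7 d had 1.84, 2.65 and 3.18 CPM and seeds at 14 d 1.18, 4.92 and 2.25 CPM. It was called lower at 7 d than at 1 d (log2 fold change -1.19, SE 0.37, adjusted p = 0.0143), with no overlap between those libraries, but the call was lost without 7 d replicate 1 (log2 fold change -1.0, adjusted p = 0.0731) and under DESeq2 (log2 fold change -1.22, adjusted p = 0.0553). Its relative PLT1 was not called in any comparison (-0.80, adjusted p = 0.0831 for 7 d against 1 d).

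WRINKLED1 (WRI1), the activator of fatty acid synthesis genes in oil-storing seeds, had 30.4, 30.1 and 27.2 CPM in light-then-dark seeds and 18.1, 23.5 and 20.1 CPM at 1 d. Its values were 13.6, 15 and 15.9 CPM at 7 d and 21.3, 19.3 and 21 CPM at 14 d. The light-then-dark libraries were the highest and the 7 d libraries the lowest, with no overlap between those conditions. WRI1 was higher in light-then-dark seeds than at 7 d (log2 fold change 0.98, SE 0.16, adjusted p = 0.00119), the only call of a higher AP2/ERF model in that comparison that held whichever library was left out. It was lower at 7 d than at 1 d (-0.48, adjusted p = 0.0119), a call lost under DESeq2 (log2 fold change -0.52, adjusted p = 0.0521). Against 14 d it stood at the threshold (0.52, adjusted p = 0.0494) and lost its call whichever library was left out (log2 fold changes 0.47 to 0.59, adjusted p = 0.0506 to 0.176) and under DESeq2, RLE scaling, scaling by total counts, no filter on low counts, the replicate block, the 6 libraries alone or both libraries that stand apart left out (log2 fold changes 0.47 to 0.54, adjusted p = 0.0514 to 0.191).

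WRI3, which acts on fatty acids for cutin, had 1.35, 5.7 and 0.555 CPM in light-then-dark seeds and 19.6, 21.6 and 21.5 CPM at 1 d. After 7 d of light it stood at 4.79, 7.94 and 7 CPM, and after 14 d at 4.74, 3.28 and 3.75 CPM. All 3 libraries of 1 d lay above the other 9, and WRI3 was lower at 7 d (log2 fold change -1.69, SE 0.26, adjusted p = 0.000114). The model of AT2G41710, an AP2-like gene of the same group, ran the other way, with 157, 218 and 150.0 CPM in light-then-dark seeds and 41.2, 43.7 and 40.5 CPM at 1 d. It measured 129, 127 and 170.0 CPM at 7 d and 192, 116 and 163 CPM at 14 d. Its 1 d libraries were the lowest of the 12, and it was higher at 7 d (log2 fold change 1.76, SE 0.19, adjusted p = 7.6e-06).

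The repressors of flowering TOE1, SMZ and SNZ are targets of the microRNA miR172 in Arabidopsis. TOE1 had 1.35, 1.63 and 3.33 CPM in light-then-dark seeds and 15.8, 18.8 and 15.1 CPM at 1 d. Libraries of 7 d held 4.79, 6.62 and 4.45 CPM, and those of 14 d 4.74, 3.69 and 2.25 CPM. The libraries of 1 d were higher than the 9 others, and TOE1 was lower at 7 d (log2 fold change -1.62, SE 0.22, adjusted p = 4.04e-05). SMZ was higher at 7 d than at 1 d (log2 fold change 0.87, SE 0.24, adjusted p = 0.00632), with 18.4, 13.7 and 18.4 CPM at 7 d and 9.3, 8.74 and 9.38 CPM at 1 d. SNZ was present at low level, with 0.676, 0.815 and 1.11 CPM in light-then-dark seeds and 4.79, 2.65 and 5.72 CPM at 7 d, and was called lower in light-then-dark seeds (-2.20, adjusted p = 0.0215), though not without light-then-dark replicate 1, 2 or 3 (log2 fold changes -2.43 to -2.05, adjusted p = 0.0605 to 0.0858) and under DESeq2 (log2 fold change -2.27, adjusted p = 0.0614). The same comparison for TOE1 stood at the threshold (-1.25, adjusted p = 0.0493) and was lost without 1 d replicate 1, 2 or 3, 7 d replicate 1 or 2, 14 d replicate 1, 2 or 3 or light-then-dark replicate 1 or 2 (log2 fold changes -1.33 to -1.0, adjusted p = 0.0509 to 0.205) and under DESeq2, RLE scaling, no filter on low counts or the replicate block (log2 fold changes -1.26 to -1.22, adjusted p = 0.0517 to 0.132).

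Of the 39 DREB models 15 were tested; 5 were higher and 3 lower at 7 d than at 1 d, and the median log2 fold change of the 15 was 0.54. The same shares of all tested models apply, 30.7% higher and 29.7% lower. The DREB II group, which holds the DEAR repressors and DREB26, had 6 tested models, 3 higher and 1 lower. DREB26 had 48, 48.1 and 35.5 CPM in light-then-dark seeds and 10.3, 7.65 and 8.24 CPM at 1 d. At 7 d it had 22.5, 24.3 and 33.7 CPM, and at 14 d 24.9, 23.8 and 25.5 CPM. Levels at 1 d were the lowest and those of light-then-dark seeds the highest, without overlap with any other condition. The log2 fold change for 7 d against 1 d was 1.58, SE 0.20, adjusted p = 1.91e-05. DREB26 was also called higher in light-then-dark seeds than at 14 d (0.82, adjusted p = 0.0134) and 7 d (0.73, adjusted p = 0.0136). The first of these calls was lost without light-then-dark replicate 1 (log2 fold change 0.74, adjusted p = 0.0611), and the second without 7 d replicate 1 or 2 or light-then-dark replicate 1 or 2 (log2 fold changes 0.62 to 0.68, adjusted p = 0.0545 to 0.0685).

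DEAR3, a member of the DREB and EAR motif proteins, had 25.7, 27.7 and 25.5 CPM in light-then-dark seeds and 6.54, 7.92 and 6.87 CPM at 1 d. Seeds at 7 d had 12.9, 13.7 and 21 CPM and seeds at 14 d 14.2, 9.84 and 12.7 CPM. Its light-then-dark libraries lay above all 9 others and its 1 d libraries below all others. It was higher at 7 d than at 1 d (log2 fold change 1.10, SE 0.21, adjusted p = 0.000485) and in light-then-dark seeds than at 14 d (log2 fold change 1.17, SE 0.22, adjusted p = 0.0039). The difference from 7 d was called too (0.78, adjusted p = 0.0151), but not without 7 d replicate 1 or 2 or light-then-dark replicate 2 (log2 fold changes 0.65 to 0.74, adjusted p = 0.0516 to 0.0731).

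DEAR4 had 7.44, 8.96 and 6.66 CPM in light-then-dark seeds, 4.78, 2.46 and 5.49 CPM at 1 d, 8.85, 12.3 and 14 CPM at 7 d and 13, 13.9 and 11.2 CPM at 14 d, and was higher at 7 d than at 1 d (log2 fold change 1.39, SE 0.27, adjusted p = 0.000619). DEAR2 ran the other way, with 1.35, 0 and 2.77 CPM in light-then-dark seeds, 7.04, 7.92 and 5.72 CPM at 1 d, 3.32, 1.76 and 1.27 CPM at 7 d and 2.37, 3.28 and 2.25 CPM at 14 d, and was lower at 7 d (log2 fold change -1.56, SE 0.38, adjusted p = 0.00318). For both, the libraries of 7 d and 1 d did not overlap, and neither was called in light-then-dark seeds against 14 d (-0.77, adjusted p = 0.126 for DEAR4 and -0.84, adjusted p = 0.469 for DEAR2). ORA47, a jasmonate-responsive activator, was not called in any of the 4 comparisons (-0.72, adjusted p = 0.0646 for 7 d against 1 d). All 6 tested DREB II models, ORA47 among them, did differ between the 4 conditions (100.0%, against 72.3% of all tested models).

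Of the DREB2 group, known for dehydration and heat responses, the rule caught 4 models. All 4 were tested, and 2 of them were higher at 7 d than at 1 d. DREB2A, not called between 7 d and 1 d, and DREB2B, called lower at 7 d, were missed by the rule and are given further below. DREB2D, the most abundant AP2/ERF transcript per length, had 181, 186 and 130.0 CPM in light-then-dark seeds and 69.2, 65.3 and 58.6 CPM at 1 d. Its values were 126, 130.0 and 190.0 CPM at 7 d and 270.0, 140.0 and 219 CPM at 14 d. All 3 libraries of 1 d lay below the 9 others. DREB2D was higher at 7 d than at 1 d (log2 fold change 1.20, SE 0.23, adjusted p = 0.000566) and not called in light-then-dark seeds against 14 d (-0.32, adjusted p = 0.413). DREB2F was called higher at 7 d (1.09, adjusted p = 0.0461) although its libraries overlapped, with 9.22, 11.9 and 5.09 CPM at 7 d and 5.78, 3.82 and 3.2 CPM at 1 d, and the call was lost without 1 d replicate 2 or 3, 7 d replicate 1 or 2, 14 d replicate 1 or 3 or light-then-dark replicate 1 or 2 (log2 fold changes 0.81 to 1.07, adjusted p = 0.0503 to 0.211) and under DESeq2, RLE scaling or scaling by total counts (log2 fold changes 0.96 to 1.05, adjusted p = 0.0526 to 0.0976).

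DREB2C, a factor of the heat response, had 50.7, 44.8 and 49.9 CPM in light-then-dark seeds and 71.9, 68.5 and 73.5 CPM at 1 d. After 7 d of light it stood at 86.7, 73.2 and 103 CPM, and after 14 d at 116, 76.6 and 103 CPM. The 3 light-then-dark libraries lay below all 9 libraries kept in light. It was lower in light-then-dark seeds than at 14 d (log2 fold change -0.99, SE 0.17, adjusted p = 0.00207) and than at 7 d (log2 fold change -0.84, SE 0.16, adjusted p = 0.00399), and both calls held whichever library was left out. Between 7 d and 1 d it was not called (0.29, adjusted p = 0.106). DREB2G was not called in any of the comparisons (-0.69, adjusted p = 0.167 for light-then-dark seeds against 7 d).

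In the CBF and TINY group only 3 of 15 models were tested. The model of AT4G32800 had 1.35, 0 and 2.22 CPM in light-then-dark seeds, 11.8, 8.74 and 15.8 CPM at 1 d, 4.43, 3.97 and 1.27 CPM at 7 d and 3.55, 4.92 and 5.25 CPM at 14 d, and was lower at 7 d than at 1 d (log2 fold change -1.80, SE 0.36, adjusted p = 0.000831). Its 1 d libraries lay above all others. The tested model of AT2G44940 was called lower at 7 d as well (-0.66, adjusted p = 0.0229), but not without 1 d replicate 3 or 7 d replicate 1 or 2 (log2 fold changes -0.69 to -0.45, adjusted p = 0.0505 to 0.107). The RAP2.4 group, whose namesake responds to light, ethylene and drought in Arabidopsis, had 2 of 9 models tested. Neither was called in any of the 4 comparisons over the 12 libraries. Between the 4 conditions, 1 of the 2 differed (50.0%, against 72.3% of all tested models). RAP2.4 had 33.1, 28.5 and 37.7 CPM in light-then-dark seeds, 27.9, 30.6 and 37.1 CPM at 1 d, 41.7, 39.7 and 24.2 CPM at 7 d and 24.9, 32 and 24 CPM at 14 d, and these libraries overlapped in all 4 comparisons.

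**Figure D4:**
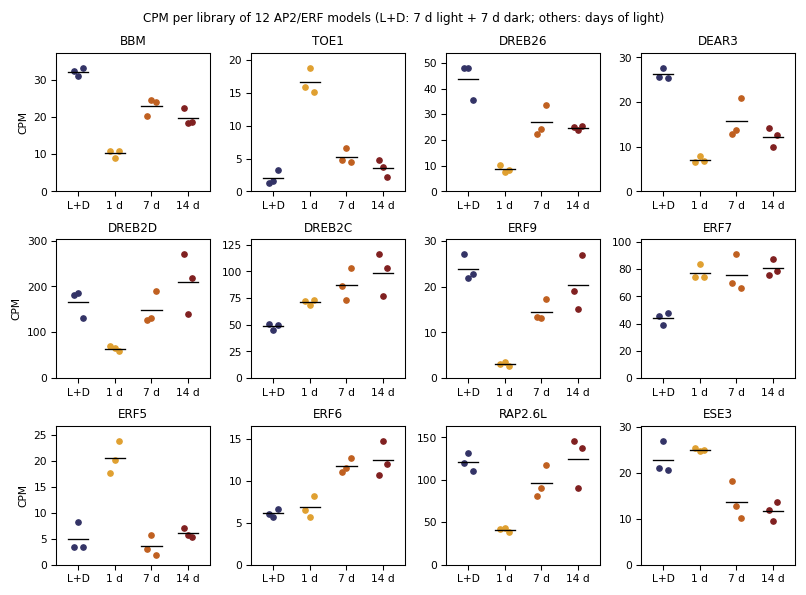
CPM (y axis, from 0) of 12 AP2/ERF models in each of the 12 libraries, with light-then-dark seeds at the left of each panel and then 1 d, 7 d and 14 d of light; points are libraries and bars the mean of 3. ERF9 had 3.02, 3.55 and 2.52 CPM at 1 d and more in every other library, ERF5 and TOE1 were highest at 1 d, and DREB2C and ERF7 were lowest in light-then-dark seeds.

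Of the 42 ERF models 21 were tested; 7 were higher and 5 lower at 7 d than at 1 d, and their median log2 fold change was -0.02. These are 33.3% and 23.8% of the 21, again against 30.7% and 29.7%. Group VIII holds repressors with the EAR motif, 7 of them tested, with 4 higher and 1 lower. ERF9 had 27.1, 22 and 22.8 CPM in light-then-dark seeds and 3.02, 3.55 and 2.52 CPM at 1 d. It measured 13.3, 13.2 and 17.2 CPM at 7 d and 19, 15.2 and 27 CPM at 14 d. This was the largest rise among the tested AP2/ERF models (log2 fold change 2.23, SE 0.26, adjusted p = 1.33e-05 for 7 d against 1 d), and the 1 d libraries lay below the 9 others. It was called higher in light-then-dark seeds than at 7 d too (0.74, adjusted p = 0.0307), but not without 7 d replicate 1 or 2 or light-then-dark replicate 1, 2 or 3 (log2 fold changes 0.66 to 0.81, adjusted p = 0.0561 to 0.116) and under DESeq2 or the replicate block (log2 fold changes 0.72 to 0.76, adjusted p = 0.0551 to 0.0682).

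ERF7, a repressor of abscisic acid responses, had 45.3, 39.1 and 47.7 CPM in light-then-dark seeds and 74.2, 83.6 and 74.2 CPM at 1 d. Libraries of 7 d held 70.1, 90.9 and 66.2 CPM, and those of 14 d 75.8, 87.7 and 78.7 CPM. All 3 light-then-dark libraries lay below the 9 kept in light. ERF7 was lower in light-then-dark seeds than at 14 d (log2 fold change -0.88, SE 0.15, adjusted p = 0.0018) and 7 d (log2 fold change -0.78, SE 0.14, adjusted p = 0.00269), both calls holding whichever library was left out, and was not called between 7 d and 1 d (-0.02, adjusted p = 0.881).

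ERF11 and ERF12, EAR repressors encoded by consecutively numbered models, and ERF3 were among the most abundant. For 7 d against 1 d, ERF11 had 43.5, 37 and 52.2 CPM at 7 d and 29.9, 26.8 and 30.2 CPM at 1 d, and ERF12 62, 69.7 and 76.3 CPM at 7 d and 51.6, 53.3 and 52.9 CPM at 1 d. ERF3 had 70.8, 81.6 and 72.5 CPM at 7 d and 55.3, 62.8 and 59.5 CPM at 1 d. The 7 d libraries of each lay above its 1 d libraries, with log2 fold changes of 0.59, adjusted p = 0.0135 for ERF11, 0.39, adjusted p = 0.0189 for ERF12 and 0.34, adjusted p = 0.0114 for ERF3. These calls depended on single libraries. That of ERF11 was lost without 1 d replicate 2 or 7 d replicate 1 or 3 (log2 fold changes 0.45 to 0.57, adjusted p = 0.0511 to 0.0714). That of ERF12 was lost without 1 d replicate 1, 2 or 3 or 7 d replicate 2 or 3 (log2 fold changes 0.29 to 0.36, adjusted p = 0.0649 to 0.0794) and under DESeq2 or scaling by total counts (log2 fold changes 0.26 to 0.35, adjusted p = 0.0626 to 0.0919). That of ERF3 was lost without 1 d replicate 1 or 3 or 7 d replicate 2 (log2 fold changes 0.24 to 0.31, adjusted p = 0.051 to 0.0853) and under DESeq2 or scaling by total counts (log2 fold changes 0.21 to 0.30, adjusted p = 0.0545 to 0.106). The more abundant ERF4 model was called lower at 7 d (-0.37, adjusted p = 0.0383), but not without 1 d replicate 1 or 3 or 7 d replicate 2 (log2 fold changes -0.37 to -0.23, adjusted p = 0.0888 to 0.15) and under DESeq2 (log2 fold change -0.41, adjusted p = 0.0712).

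Group IX is the ERF1 group of ethylene, jasmonate and defence responses, and 3 of its 11 models were tested. ERF5, known to act with ERF6 in growth restriction under water deficit, had 3.38, 8.15 and 3.33 CPM in light-then-dark seeds and 17.6, 20.2 and 23.8 CPM at 1 d. At 7 d it had 2.95, 5.73 and 1.91 CPM, and at 14 d 7.11, 5.74 and 5.25 CPM. Its 1 d libraries lay above all others, and the fall at 7 d was the largest among the tested AP2/ERF models (log2 fold change -2.48, SE 0.29, adjusted p = 1.3e-05). ERF6 had 6.09, 5.7 and 6.66 CPM in light-then-dark seeds and 6.54, 5.73 and 8.24 CPM at 1 d. Seeds at 7 d had 11.1, 11.5 and 12.7 CPM and seeds at 14 d 10.7, 14.8 and 12 CPM. The libraries at 7 d and 14 d lay above all libraries at 1 d and in light-then-dark seeds. ERF6 was higher at 7 d than at 1 d (log2 fold change 0.75, SE 0.19, adjusted p = 0.0039) and lower in light-then-dark seeds than at 14 d (-1.07, adjusted p = 0.0128) and 7 d (-0.90, adjusted p = 0.0252). The call against 14 d was lost without 14 d replicate 2 (log2 fold change -0.88, adjusted p = 0.119) and under DESeq2 or both libraries that stand apart left out (log2 fold changes -1.06 to -0.88, adjusted p = 0.0656 to 0.0969), and that against 7 d without 7 d replicate 1 or 2 or light-then-dark replicate 1, 2 or 3 (log2 fold changes -0.95 to -0.86, adjusted p = 0.0516 to 0.0822) and under DESeq2 (log2 fold change -0.90, adjusted p = 0.1). ERF104, a substrate of a defence-signalling kinase, was not called between 7 d and 1 d (0.27, adjusted p = 0.445).

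Group VII proteins carry an amino-terminal cysteine that oxygen marks for degradation, which makes them part of oxygen sensing in plant cells. HRE2 had 3.38, 1.63 and 3.33 CPM in light-then-dark seeds and 11.8, 11.2 and 11.4 CPM at 1 d. Its values were 4.43, 6.62 and 3.82 CPM at 7 d and 3.55, 6.97 and 6.75 CPM at 14 d. All 1 d libraries were higher than the 9 others, and HRE2 was lower at 7 d (log2 fold change -1.18, SE 0.23, adjusted p = 0.00062). In light-then-dark seeds the libraries lay below those of 14 d but the test was not passed (-1.10, adjusted p = 0.0881). RAP2.12 and RAP2.2, the abundant members, were not called in any of the 4 comparisons over the 12 libraries. Between the 4 conditions, 2 of the 3 tested group VII models differed (66.7%, against 72.3% of all tested models). Without the pair of libraries that stand apart, both RAP2.12 and RAP2.2 were called higher at 14 d than at 7 d (RAP2.12 0.42, adjusted p = 0.012, and RAP2.2 0.42, adjusted p = 0.012). In that run, chosen after seeing the data, 18.1% of all tested models were higher. RAP2.12 had 116, 123 and 107 CPM in light-then-dark seeds, 161, 174 and 156 CPM at 1 d, 118, 123 and 153 CPM at 7 d and 173, 118 and 151 CPM at 14 d (-0.32, adjusted p = 0.0628 for 7 d against 1 d), and RAP2.2 128, 153 and 128 CPM in light-then-dark seeds, 138, 149 and 133 CPM at 1 d, 132, 145 and 156 CPM at 7 d and 188, 148 and 180.0 CPM at 14 d (0.04, adjusted p = 0.767).

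Among the cytokinin response factors (group VI) that the rule caught, 5 of 7 models were tested. CRF1, CRF4 and both CRF2 models, which the rule missed, were lower at 7 d than at 1 d and are given further below. The abundant CRF8 model had 70.8, 65.7 and 91.6 CPM at 7 d and 49.3, 59 and 55.8 CPM at 1 d. It was called higher at 7 d (0.46, adjusted p = 0.0284), a call lost without 1 d replicate 1, 2 or 3, 7 d replicate 1 or 3 or light-then-dark replicate 1 (log2 fold changes 0.29 to 0.48, adjusted p = 0.0526 to 0.154) and under DESeq2 or scaling by total counts (log2 fold changes 0.33 to 0.43, adjusted p = 0.067 to 0.0907). The CRF10 model Aa31sc621G10 had 10.8, 16.3 and 6.1 CPM in light-then-dark seeds and 30.9, 31.1 and 29.8 CPM at 1 d. After 7 d of light it stood at 18.8, 18.5 and 20.4 CPM, and after 14 d at 17.8, 24.6 and 26.2 CPM. It was lower at 7 d than at 1 d (log2 fold change -0.68, SE 0.18, adjusted p = 0.00655) and its light-then-dark libraries were below all others. The call against 14 d (-1.16, adjusted p = 0.0109) was lost without light-then-dark replicate 3 (log2 fold change -0.81, adjusted p = 0.0505) and under the 6 libraries alone (log2 fold change -1.15, adjusted p = 0.0766), and that against 7 d (-0.86, adjusted p = 0.035) without 1 d replicate 1, 2 or 3, 7 d replicate 1 or 2 or light-then-dark replicate 1 or 3 (log2 fold changes -0.87 to -0.50, adjusted p = 0.0555 to 0.18) and under the replicate block or the 6 libraries alone (log2 fold changes -0.86 to -0.85, adjusted p = 0.0646 to 0.0816). The other tested CRF10 model, Aa31LG7G9040, was not called (-0.14, adjusted p = 0.431 for 7 d against 1 d), nor was CRF11 (-0.04, adjusted p = 0.721).

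In groups V and X, ESE3, an ethylene- and salt-inducible factor, had 21, 26.9 and 20.5 CPM in light-then-dark seeds and 25.4, 24.6 and 24.9 CPM at 1 d. It measured 18.1, 12.8 and 10.2 CPM at 7 d and 11.8, 9.43 and 13.5 CPM at 14 d. The light-then-dark and 1 d libraries lay above all libraries of 7 d and 14 d. ESE3 was lower at 7 d than at 1 d (log2 fold change -0.81, SE 0.18, adjusted p = 0.00176) and higher in light-then-dark seeds than at 14 d (1.01, adjusted p = 0.0142) and 7 d (0.66, adjusted p = 0.0447). The call against 14 d was lost without 14 d replicate 2 or light-then-dark replicate 2 (log2 fold changes 0.81 to 0.89, adjusted p = 0.0503 to 0.0743), and that against 7 d without 1 d replicate 1, 2 or 3, 7 d replicate 2 or 3 or light-then-dark replicate 1, 2 or 3 (log2 fold changes 0.53 to 0.76, adjusted p = 0.0627 to 0.158) and under DESeq2, scaling by total counts, no filter on low counts, the replicate block or the 6 libraries alone (log2 fold changes 0.59 to 0.70, adjusted p = 0.0523 to 0.0996). RAP2.6L had 120.0, 132 and 110.0 CPM in light-then-dark seeds and 41.7, 43.7 and 38 CPM at 1 d. Libraries of 7 d held 81.5, 90.4 and 118 CPM, and those of 14 d 146, 90.2 and 138 CPM. Its 1 d libraries lay below all others, and it was higher at 7 d (log2 fold change 1.22, SE 0.18, adjusted p = 7.93e-05). ABR1, a repressor of abscisic acid responses, was not called (-0.02, adjusted p = 0.948 for the same comparison).

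The Soloist model (AT4G13040) was low throughout, with 1.35, 1.63 and 1.66 CPM in light-then-dark seeds, 6.79, 7.37 and 6.87 CPM at 1 d, 2.21, 0.882 and 1.91 CPM at 7 d and 1.18, 2.46 and 3 CPM at 14 d, and was lower at 7 d than at 1 d (log2 fold change -2.03, SE 0.29, adjusted p = 6.66e-05). Both tested models outside the listed subfamilies were called. The model of AT4G31060 had 28, 28.7 and 17.8 CPM at 7 d and 9.56, 12.6 and 10.1 CPM at 1 d, and was higher at 7 d (log2 fold change 1.25, SE 0.24, adjusted p = 0.000566). The model of AT1G12630 had 3.38, 4.89 and 3.88 CPM in light-then-dark seeds and 10.6, 10.7 and 12.4 CPM at 1 d. At 7 d it had 12.2, 7.94 and 10.2 CPM, and at 14 d 7.11, 11.9 and 15.7 CPM. Its light-then-dark libraries lay below all others. It was lower there than at 14 d (log2 fold change -1.58, SE 0.33, adjusted p = 0.00775), a call that held whichever library was left out, and than at 7 d (-1.34, adjusted p = 0.0132), a call lost without 7 d replicate 1 or light-then-dark replicate 1 or 3 (log2 fold changes -1.30 to -1.13, adjusted p = 0.0535 to 0.0642).

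The 36 untested models with counts were removed by the filter on low counts, and are given as counts summed over 3 libraries. Over the 12 libraries, the highest of them (ERF106) had 103 counts and the lowest tested AP2/ERF model had 87. With no filter, the 36 were tested beside the other 48. In that run 20 AP2/ERF models were higher and 17 lower at 7 d than at 1 d (22.9% and 26.3% of all models then tested). Between the 4 conditions 47 differed (59.4% of all). WIND3, a regulator of wound-induced dedifferentiation, had 15 counts in light-then-dark seeds, 56 at 1 d, 6 at 7 d and 8 at 14 d, and TINY2 had 0 counts in light-then-dark seeds, 14 at 1 d, 1 at 7 d and 2 at 14 d. ERF115, known from stem-cell renewal, had 0 counts in light-then-dark seeds, 1 at 1 d, 15 at 7 d and 0 at 14 d. SHN3, a cuticle regulator, had 13 counts in light-then-dark seeds, 0 at 1 d, 10 at 7 d and 9 at 14 d. The 3 libraries of 1 d were the deepest, with 12007869 TMM-scaled reads in all, against 4508076 in light-then-dark seeds, 6550947 at 7 d and 4617775 at 14 d. A count of 0 allows up to 0.665 CPM in light-then-dark seeds, 0.25 CPM at 1 d, 0.458 CPM at 7 d and 0.65 CPM at 14 d (3 counts over the condition, counting error only). The 17 models without a count in any library included PUCHI, ERF105 and RAP2.11.

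Among the 101 AP2/ERF models, 8 Arabidopsis genes were paired with more than 1 model, 18 models in all, and 3 genes with more than 1 tested model (CRF8, CRF10 and ERF4). The handling of reads shared by near-identical copies is not stated in the labels, so their split is uncertain. The ERF9 models differed in where their counts lay. The untested model Aa31LG5G3030 had 4 counts in light-then-dark seeds, 56 at 1 d, 2 at 7 d and 5 at 14 d (0.867 ± 0.221 CPM, 4.73 ± 1.19 CPM, 0.359 ± 0.326 CPM and 0.91 ± 0.799 CPM, mean ± SD, n = 3 each), highest at 1 d. The tested model Aa31LG9G13720 was lowest at 1 d. The WRI3 models differed too: the untested Aa31LG4G1290 had 24 counts in light-then-dark seeds, 7 at 1 d, 7 at 7 d and 2 at 14 d, most in light-then-dark seeds, while the tested Aa31LG7G630 was highest at 1 d. For ERF4, Aa31LG8G2410 was called lower at 7 d, as above, and Aa31LG10G1960 was not called (0.39, adjusted p = 0.319). The difference between copies was not tested.

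Genes around the AP2/ERF factors were followed in lists chosen from Arabidopsis knowledge. Their counts stand beside 30.7% of all tested models higher and 29.7% lower at 7 d than at 1 d. In light-then-dark seeds 6.05% were higher and 7.02% lower than at 14 d, and 8.42% higher and 9.99% lower than at 7 d. Ethylene, made from ACC by ACC oxidases, is sensed by receptors of the ETR and ERS type and acts through EIN2 and EIN3 on ERF genes. Of 5 tested synthesis models, 1 was higher and 1 lower at 7 d than at 1 d. ACO5, an ACC oxidase, had 0.738, 1.32 and 0 CPM at 7 d and 14.6, 15.3 and 10.3 CPM at 1 d (log2 fold change -4.03, SE 0.45, adjusted p = 7.84e-06), and ACS1, an ACC synthase, 22.5, 29.1 and 17.8 CPM at 7 d and 14.1, 14.7 and 13.7 CPM at 1 d (log2 fold change 0.73, SE 0.17, adjusted p = 0.00279). ACO5 thus had nearly all of its counts at 1 d, whereas ACS1 was present in all 4 conditions.

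Of 14 tested models of ethylene perception and signalling, 5 were higher and 4 lower at 7 d than at 1 d (median log2 fold change 0.16). The receptor ERS1 had 2.95, 3.53 and 0.636 CPM at 7 d and 56.3, 52.2 and 56.1 CPM at 1 d (log2 fold change -4.38, SE 0.29, adjusted p = 1.81e-07), and the receptors ETR2 (-1.58, adjusted p = 1.19e-05) and EIN4 (-1.89, adjusted p = 2.97e-05) were lower as well. EIN3-like EIL3 was higher (0.75, adjusted p = 1.92e-05). In light-then-dark seeds the transcription factor EIN3 was higher than at 14 d, with 254, 270.0 and 262 CPM in light-then-dark seeds and 197, 180.0 and 206 CPM at 14 d (log2 fold change 0.43, SE 0.10, adjusted p = 0.00983), and higher than at 7 d (0.60, adjusted p = 0.00108). EIN3 was also higher at 7 d than at 1 d (0.62, adjusted p = 0.000106). The receptor ETR1 was called lower in light-then-dark seeds than at 14 d (-0.49, adjusted p = 0.012), but not without light-then-dark replicate 2 or 3 (adjusted p up to 0.0543).

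Of 8 tested hypoxia-response models, which group VII factors activate in Arabidopsis, 6 were lower and none higher at 7 d than at 1 d, with a median log2 fold change of -0.97. Of all tested models, 29.7% were lower and 30.7% higher in that comparison. PCO1, a plant cysteine oxidase that marks group VII factors for degradation, had 3.38, 1.63 and 2.22 CPM in light-then-dark seeds and 66.1, 63.4 and 59.5 CPM at 1 d. Seeds at 7 d had 12.9, 15.4 and 14.6 CPM and seeds at 14 d 13, 12.7 and 12 CPM. PCO2 had 21, 17.9 and 16.1 CPM in light-then-dark seeds and 154, 129 and 129 CPM at 1 d. Its values were 47.9, 49.8 and 49 CPM at 7 d and 45, 38.5 and 38.2 CPM at 14 d. For both, 1 d was highest and light-then-dark seeds lowest, without overlap. PCO1 was lower at 7 d than at 1 d (log2 fold change -2.14, SE 0.13, adjusted p = 9.55e-08), and in light-then-dark seeds than at 14 d (log2 fold change -2.34, SE 0.28, adjusted p = 0.000151) and 7 d (-2.52, adjusted p = 4.52e-05). PCO2 gave -1.49, adjusted p = 3.69e-07 for 7 d against 1 d, -1.13, adjusted p = 0.000462 for light-then-dark seeds against 14 d and -1.42, adjusted p = 4.52e-05 against 7 d. LBD41 (-1.38, adjusted p = 4.55e-05) and ADH1 (-0.78, adjusted p = 6.65e-05) were lower at 7 d than at 1 d. Against 14 d, 3 of the 8 were lower in light-then-dark seeds, the other being ADH1 (-0.45, adjusted p = 0.0465), a call lost in 8 of 12 leave-outs (adjusted p up to 0.226). Against 7 d the other was a SUS4 model (-1.19, adjusted p = 0.0348), lost in 5 of 12 (adjusted p up to 0.144). The 3 tested models of the turnover pathway itself, ATE1, ATE2 and PRT6, were not called in any comparison.

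Of 7 tested DREB and CBF target models, 4 were higher and 1 lower at 7 d than at 1 d. The galactinol synthases, which make the precursor of raffinose sugars, rose: GOLS2 had 38, 41.9 and 44.5 CPM at 7 d and 6.29, 5.46 and 6.18 CPM at 1 d (log2 fold change 2.77, SE 0.21, adjusted p = 4.2e-07), GOLS1 111, 104 and 160.0 CPM at 7 d and 29.7, 25.1 and 25.9 CPM at 1 d (log2 fold change 2.2, SE 0.20, adjusted p = 1.87e-06), and GOLS3 gave 2.36, adjusted p = 0.000203. The dehydrin ERD10 was lower (-3.23, adjusted p = 0.000278), with 1.84, 0.441 and 0 CPM at 7 d and 9.3, 8.74 and 8.93 CPM at 1 d. The dehydration and cold target RD29A was not called (0.27, adjusted p = 0.0654). Of 19 tested WRI1 targets of fatty acid synthesis, 5 were higher and 11 lower at 7 d than at 1 d (median log2 fold change -0.50). A KASI model, a condensing enzyme of chain elongation, gave -2.32, adjusted p = 4.2e-07, and the plastid enolase ENO1 -1.83, adjusted p = 1.53e-06. In light-then-dark seeds against 14 d, 4 were higher and 2 lower. They included the plastid pyruvate kinase subunit PKP-ALPHA, higher (0.92, adjusted p = 0.000207), the dehydrogenase subunit LPD1, higher (2.03, adjusted p = 0.00156), and the desaturase SSI2, lower (-0.73, adjusted p = 0.00107). The calls of MOD1 (0.65, adjusted p = 0.0327) and KAR (-0.47, adjusted p = 0.0444) were lost in 6 and 8 of 12 leave-outs, with adjusted p up to 0.123 for MOD1 and 0.153 for KAR.

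**Figure D5:**
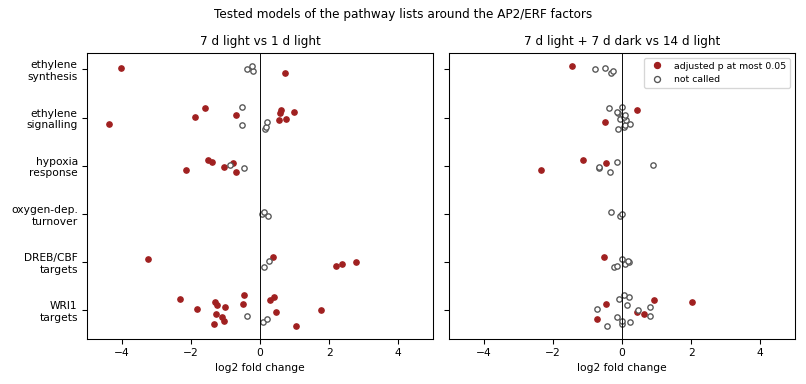
Log2 fold change (x axis) of each tested model of 6 pathway lists (y axis), for 7 d against 1 d of light on the left and light-then-dark seeds against 14 d of light on the right; filled points passed the adjusted threshold. All 8 hypoxia-response models lie left of 0 on the left side, 6 of them filled, and the 3 turnover models are open on both sides.

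Of 14 tested family models that the rule missed, 1 was higher and 5 lower at 7 d than at 1 d. These are 7.14% and 35.7%, against 30.7% and 29.7% of all tested models. The 5 were cytokinin response factors CRF1 (-2.66, adjusted p = 3.35e-05), CRF4 (-2.09, adjusted p = 7.75e-07) and both CRF2 models (-1.18, adjusted p = 4.1e-05, and -0.76, adjusted p = 6.49e-05), and DREB2B (-1.03, adjusted p = 0.0108). The call of DREB2B was lost without 7 d replicate 2 (adjusted p = 0.0503). AIL6, an AINTEGUMENTA-like factor, was higher (0.87, adjusted p = 4.82e-05). DREB2A (0.11, adjusted p = 0.528) and RAP2.3 (0.45, adjusted p = 0.162) were not called. In light-then-dark seeds 2 of the 14 were lower than at 14 d and none higher (14.3%, against 7.02% of all tested models). They were CRF6 (-0.95, adjusted p = 0.00265) and CRF4, whose call was lost in 8 of 12 leave-outs (adjusted p up to 0.178). Against 7 d, 1 was higher and 2 lower (7.14% and 14.3%, against 8.42% and 9.99%). ERF109 was lower (-2.98, adjusted p = 0.00975). The calls of AIL5, higher, and a TOE2 model, lower, were lost in 8 and 5 of 12 leave-outs (adjusted p up to 0.115 and 0.105).

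The 42 other models that the rule caught had 21 tested. At 7 d, 8 were higher and 8 lower than at 1 d (38.1% each, against 30.7% and 29.7% of all tested models). Among the B3 proteins is FUSCA3 (FUS3), a regulator of seed maturation, with 27.1, 27.7 and 22.8 CPM in light-then-dark seeds and 1.01, 2.46 and 1.37 CPM at 1 d. After 7 d of light it stood at 14, 17.2 and 19.1 CPM, and after 14 d at 19, 20.5 and 21.7 CPM. Its 1 d libraries were the lowest of all, and it was higher at 7 d (log2 fold change 3.33, SE 0.26, adjusted p = 5.11e-07). FUS3 was also called higher in light-then-dark seeds than at 7 d. That call was lost without 7 d replicate 1 or 2 or light-then-dark replicate 1 or 2 (log2 fold changes 0.52 to 0.68, adjusted p = 0.0665 to 0.129). It was lost too under DESeq2, scaling by total counts, the replicate block or the 6 libraries alone (log2 fold changes 0.57 to 0.65, adjusted p = 0.0531 to 0.0848). ABI3, its partner in seed maturation, had 180.0, 153 and 173 CPM in light-then-dark seeds, 183, 178 and 170.0 CPM at 1 d, 177, 170.0 and 151 CPM at 7 d and 154, 183 and 187 CPM at 14 d, and was not called in any of the comparisons (-0.09, adjusted p = 0.496 for 7 d against 1 d). NGAL1, of the NGATHA-like repressors, had 14.2, 10.6 and 13.3 CPM in light-then-dark seeds and 113, 114 and 98.4 CPM at 1 d. It measured 47.2, 51.6 and 43.3 CPM at 7 d and 39.1, 46.3 and 37.5 CPM at 14 d. It was lower at 7 d than at 1 d (log2 fold change -1.19, SE 0.12, adjusted p = 2.62e-06) and in light-then-dark seeds than at 14 d (log2 fold change -1.70, SE 0.17, adjusted p = 3.58e-05) and 7 d (-1.89, adjusted p = 1.09e-05), and the 3 light-then-dark libraries lay below the 9 others.

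The B3 model Aa31LG5G11590 (AT3G06160) had 11.1, 10.7 and 12.1 CPM at 1 d and no count in any of the 9 other libraries, at least 24.7-fold lower at 7 d against a floor of 3 counts over the condition. The B3 model of AT5G60140 was higher at 7 d than at 1 d (1.78, adjusted p = 0.000193) and in light-then-dark seeds than at 14 d (1.45, adjusted p = 0.00401), with 13.5, 13.9 and 16.6 CPM in light-then-dark seeds and 2.51, 1.64 and 1.83 CPM at 1 d. Libraries of 7 d held 8.48, 6.62 and 5.09 CPM, and those of 14 d 4.74, 6.56 and 3.75 CPM. VRN1, a vernalization factor, was lower at 7 d than at 1 d (-0.71, adjusted p = 3.29e-05), and NGA1 was higher (1.33, adjusted p = 8.7e-05). VRN1 was also called higher in light-then-dark seeds than at 14 d and at 7 d. Both calls were lost under DESeq2 (0.35, adjusted p = 0.161 against 14 d and 0.38, adjusted p = 0.0766 against 7 d), total counts, the replicate block and the 6 libraries alone. That against 14 d was also lost with no filter and without both libraries that stand apart. It was lost when any single library of 1 d, 14 d or light-then-dark seeds, or 7 d replicate 1, was left out (adjusted p = 0.0517 to 0.146). That against 7 d was lost without 7 d replicate 2 or light-then-dark replicate 1 or 2 (adjusted p = 0.0788 to 0.107). Of 6 tested lipid phosphatases, 3 were higher and 3 lower at 7 d than at 1 d (50.0% each, against 30.7% and 29.7% of all tested models). DRIP2, the ligase that marks DREB2A for degradation, was called higher in light-then-dark seeds than at 14 d (0.47, adjusted p = 0.0244), but not without 14 d replicate 3 or light-then-dark replicate 2 or 3 (log2 fold changes 0.45 to 0.51, adjusted p = 0.0509 to 0.0773) and under scaling by total counts, the replicate block or the 6 libraries alone (log2 fold changes 0.44 to 0.48, adjusted p = 0.0523 to 0.103).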

How the data were processed

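Polyadenylated RNA of whole seeds was sequenced in 12 libraries, 3 per condition. The authors deposited read counts per gene model and RPKM (per gene length and library total), with descriptions and Arabidopsis partners. The submitters' processing notes name the build TAIR10 and the tools HTSeq 0.11.2, Bowtie2 2.3.5.1, Trimmomatic and bcl2fastq 2.17.1. No source used here gives the strand setting, the handling of duplicates or each tool's role. From the deposited counts, edgeR 4.0.16 (R 4.3.3) was run on all 12 libraries with TMM scaling, the default filter on low counts (15301 models kept; the rest hold 0.379% of counts) and its quasi-likelihood F-test, with Benjamini-Hochberg adjustment over all tested models. Calls were made at 0.05, and edgeR's common dispersion came to 0.0177. SE is the log2 fold change divided by the root of F. RPKM served only to set levels side by side. The code was tested on simulated data. Pairs of libraries of a condition differed by 1.14 to 7.68 in chi-square per degree of freedom, so none was merged. The members and lists were chosen with earlier results of these data known. Named were, per comparison, the 8 highest and 8 lowest called members with at least 2 CPM, the 3 most abundant of each subfamily, other members beside their group, and up to 4 called genes per pathway list with the smallest adjusted p; further genes were chosen after their values were seen. Alternatives were DESeq2 1.42.0, RLE and total-count scaling, no filter, a replicate block, the 6 libraries of a comparison alone and leaving out each library; leaving out both libraries that stand apart was added after seeing the data.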

Additional observations from a re-analysis of the deposited data

How the results depend on the processing

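No called member changed direction under any alternative run. Scaling by total counts moved the median log2 fold change of all tested models to -0.11 for 7 d against 1 d and -0.10 for light-then-dark seeds against 7 d, against 0.02 and -0.03 with TMM. For 7 d against 1 d, all counts of called models stayed within 1.5 times the reported ones. For 14 d against 7 d, leaving out 1 library gave 0 to 3 higher AP2/ERF models (0 to 3 of all 143 rule members); leaving out both libraries that stand apart, a choice made after seeing the data, gave 13 higher and 2 lower AP2/ERF models, and 14 and 4 of the 143. For light-then-dark seeds against 14 d, leaving out 1 library gave 3 to 5 higher AP2/ERF models (5 to 8 of the 143), without both 8 AP2/ERF models were lower (11 of the 143), the 6 libraries alone gave 3 lower AP2/ERF models, and total counts, the replicate block and the 6 libraries alone each gave 5 higher of the 143. Against 7 d, leaving out 1 library gave 2 to 8 higher and 2 to 9 lower AP2/ERF models (3 to 11 and 3 to 11 of the 143), and leaving out both gave 13 higher AP2/ERF models (16 higher and 14 lower of the 143). DESeq2 gave 3 higher AP2/ERF models there (4 of the 143), the replicate block 3 (4 of the 143), total counts 5 higher of the 143, and the 6 libraries alone 4 lower AP2/ERF models (5 higher and 5 lower of the 143). The cause of these shifts was not tested. A pairing of libraries by replicate number was not seen. Same-numbered libraries correlated at -0.47 to 0.48 in their deviations from condition means, and 4 of 12 correlated best with their own number. With 3 libraries per condition, and both libraries that stand apart included, these values cannot decide whether the libraries are paired. The filter on low counts and depth limit what can be said of the 53 untested AP2/ERF models.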
